A study of Mus musculus with 40 samples.

Results

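Cholesterol and fatty acid synthesis genes were followed through helper T cell induction in cells with and without Malt1. The group held 36 genes, chosen by symbol from the pathway, with earlier results of these data known. They were 8 of the mevalonate steps, 11 of the squalene and sterol steps, 5 regulators, 9 of fatty acid synthesis and 3 of sterol transport. The platform's gene table listed probes for 33 of them, and 30 had a probe that passed the detection filter, among 10730 genes tested in all. Hmgcs1, Fdft1 and Acat2 had no listed probe, and the probes of Ggps1, Acaca and Abca1 were detected on too few arrays to be tested. All values come from Illumina MouseWG-6 v2 bead arrays of total RNA, a platform on which each gene is read by hybridisation to one or more probes. Naive T cells carrying CD4 and CD62L were taken from spleens and lymph nodes of mice of the C57BL6 strain, 8 to 12 weeks old, and were induced to become Th17 or Th1 cells. The 8 groups were Malt1-/- Th17 at 48 h, WT Th17 at 48 h, Malt1-/- Th17 at 72 h, WT Th17 at 72 h, Malt1-/- Th1 at 48 h, WT Th1 at 48 h, Malt1-/- Th1 at 72 h and WT Th1 at 72 h, with 5 arrays in each and 40 in all. Every group had been through induction, so no group held cells before induction. The labels do not say whether the arrays of a group came from separate animals. The p-values then measure only the spread between these arrays, which may be technical, and the number of arrays limits the precision.

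Cholesterol is built from acetyl-CoA. The mevalonate steps turn it into isoprenoid units, farnesyl pyrophosphate is joined into squalene, and squalene is cyclised to lanosterol and trimmed to cholesterol. Most genes of the pathway, and many of fatty acid synthesis and desaturation, are targets of the SREBP transcription factors, encoded by Srebf1 and Srebf2. SCAP escorts SREBP out of the endoplasmic reticulum when sterols are low, and the INSIG proteins hold it back when they are high. Dividing T cells are known to raise lipid synthesis after activation to supply new membrane. Some sterol intermediates are known ligands of RORgammat, the transcription factor that defines Th17 cells. The MALT1 protein is a paracaspase of the signalling complex between antigen receptors and NF-kappaB.

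Levels below are normalised log2 signals after background correction and quantile normalisation, and a difference of 1 on that scale is a doubling. Levels of different probes are not compared with each other. A gene is called when its Benjamini-Hochberg adjusted p in the limma fit of all 40 arrays is under 0.05 over the 10730 genes, and SE is the standard error of that fit. Per array, 14640 to 17409 of 45281 probes were detected, and the median raw signal ran from 127.1 to 193.3. The Malt1 probe followed the labels on every array: its mean level was 8.64 in Malt1-/- Th17 cells at 48 h, against 12.49 in WT, and the differences in the 4 genotype comparisons lay between -4.92 and -3.85 (SE 0.30). Which part of Malt1 is missing is not in the labels, and the probe was detected in all groups. The 4 T cell markers tested were detected in every group. The summed signal of the Th17 markers tested (Il17a, Il17f and Ccr6) ran from 3847 to 27103 on Th17 arrays and from 70.5 to 791 on Th1 arrays, while that of the 4 Th1 markers ran from 316 to 1089 and from 8170 to 38538. Brighter markers weigh more in such sums. Of the 4 Th1 markers, 3 were called lower and 1 higher in Th17 than in Th1 cells, in each genotype and at each time. Among the 40 arrays, 8 correlated better with the mean of another group than with the other arrays of their own: Malt1-/- Th17 72 h replicate 2, WT Th17 48 h replicate 5, WT Th17 72 h replicates 4 and 5, Malt1-/- Th1 48 h replicate 2, WT Th1 48 h replicate 1, Malt1-/- Th1 72 h replicate 2 and WT Th1 72 h replicate 4. They were kept, and counts of calls are also given without them. That choice rests on the values and narrows the spread within groups by construction, and in most comparisons it raises the calls among all genes too.

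Promoter sequences were available from RefSeq (build GRCm38.p6, 250 bases before to 50 bases after each start) for 28 of the 36 genes, in 36 entries. They were searched on both strands for TCACNCCAC, a form of the sterol element that SREBP binds, for CCAAT, the box bound by NF-Y, and for GGGCGG, the box bound by Sp1. NF-Y and Sp1 are known partners of SREBP at sterol gene promoters. The box CCAAT was present for 22 of the 28 genes (78.6%), against 41.1% of all 27025 genes with a promoter entry, and GGGCGG for 23 of 28 (82.1%), against 38.2%. Among genes tested on the arrays, CCAAT was present for 20 of 23 members, against 43.1% of 8760 genes, and GGGCGG also for 20 of 23, against 66.8%. Over all 32851 promoter entries the shares were 37.4% for CCAAT, 35.7% for GGGCGG and 1.24% for TCACNCCAC. The sterol element letters were found for 1 of the 28, Hmgcs1, a gene with no listed probe. In no promoter entry of these genes did matches of different motifs overlap. A match is a description of the letters and not a site, and no match says only that these letters are not in this window. Of the 9 members that were lower in Malt1-/- cells in some genotype comparison, 7 had a promoter entry and 6 of these held CCAAT. The 4 of them with a single promoter entry are shown, a choice made after the search, because they are the called genes whose values follow. Capitals mark CCAAT, or ATTGG where it lies on the other strand. The windows are chr8:122443373-122443672 (minus strand) for Mvd, chr10:76531355-76531654 (plus strand) for Lss, chr8:64733529-64733828 (minus strand) for Msmo1 and chr2:155517793-155518092 (plus strand) for Acss2.
Mvd: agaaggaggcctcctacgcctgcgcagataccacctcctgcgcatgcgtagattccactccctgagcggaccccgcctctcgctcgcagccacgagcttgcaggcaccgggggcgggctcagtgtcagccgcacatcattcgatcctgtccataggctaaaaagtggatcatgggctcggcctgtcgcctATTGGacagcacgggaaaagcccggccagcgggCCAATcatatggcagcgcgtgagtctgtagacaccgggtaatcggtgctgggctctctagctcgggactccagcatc
Lss: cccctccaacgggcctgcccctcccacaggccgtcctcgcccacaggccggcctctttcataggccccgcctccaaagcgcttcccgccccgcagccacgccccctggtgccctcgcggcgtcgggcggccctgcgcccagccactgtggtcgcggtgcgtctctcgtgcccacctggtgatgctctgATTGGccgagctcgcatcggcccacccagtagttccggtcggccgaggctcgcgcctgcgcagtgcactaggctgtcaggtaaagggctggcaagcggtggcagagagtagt
Msmo1: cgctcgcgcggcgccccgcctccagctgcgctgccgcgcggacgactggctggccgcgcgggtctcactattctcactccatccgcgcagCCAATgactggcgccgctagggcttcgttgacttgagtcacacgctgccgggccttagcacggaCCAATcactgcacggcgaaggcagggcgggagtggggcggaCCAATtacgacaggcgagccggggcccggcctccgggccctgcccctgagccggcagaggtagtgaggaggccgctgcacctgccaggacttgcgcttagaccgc
Acss2: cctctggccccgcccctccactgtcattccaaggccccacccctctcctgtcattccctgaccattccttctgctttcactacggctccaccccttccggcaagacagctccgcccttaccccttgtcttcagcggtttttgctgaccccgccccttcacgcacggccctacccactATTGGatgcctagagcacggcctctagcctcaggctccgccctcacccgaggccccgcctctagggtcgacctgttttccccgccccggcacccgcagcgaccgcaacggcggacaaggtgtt
In Mvd the boxes begin 60 and 27 bases before the start, in Lss 62 bases before it, in Msmo1 160, 96 and 55 bases before it, and in Acss2 73 bases before it. All 4 windows also hold GGGCGG on one strand or the other, from 1 match in Mvd to 5 in Acss2.

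In Th17 cells at 48 h, 8 sterol and fatty acid synthesis genes were lower in Malt1-/- than in WT cells. Among the 30 members tested none was called higher, where 2.97% of all genes tested were called lower and 3.41% higher. The 8 were Pmvk, Mvd and Fdps of the mevalonate steps, Lss and Dhcr7 of the sterol steps, and Acss2, Scd1 and Fads2 of fatty acid synthesis, by 1.61-fold (Lss) to 3.69-fold (Scd1). The median difference of the 30 was -0.36, against -0.01 over all genes tested. In bulk RNA, fewer cells of a type and less RNA per cell cannot be told apart.

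Within the mevalonate steps, 3 of the 5 genes tested fell and the median difference was -0.73. Pmvk, the kinase that adds the second phosphate to mevalonate, had levels of 8.44, 8.09, 8.02, 7.80 and 8.16 on the Malt1-/- Th17 48 h arrays, against 8.89, 9.29, 9.02, 8.92 and 8.88 on the WT Th17 48 h arrays. Every Malt1-/- array lay below every WT array (log2 difference -0.90, SE 0.20, adjusted p = 0.00728). Mvd, the decarboxylase that releases isopentenyl pyrophosphate, had 9.19, 8.50, 8.85, 8.39 and 8.10 on the Malt1-/- arrays, against 9.19, 9.80, 9.89, 9.88 and 9.83 on the WT arrays. The groups met only at replicate 1 of each genotype, the highest Malt1-/- and the lowest WT array (log2 difference -1.11, SE 0.18, adjusted p = 0.000249). Fdps, which joins isoprenoid units into farnesyl pyrophosphate, had 12.67, 12.37, 12.63, 12.27 and 12.40 on the Malt1-/- arrays, against 12.999, 13.25, 13.22, 13.45 and 13.09 on the WT arrays. These did not overlap (log2 difference -0.73, SE 0.13, adjusted p = 0.000934), and its dimmer probe differed by -0.54 without passing. With the mean of both probes the adjusted p was 0.0503. The remaining pair did not pass. Mvk, which adds the first phosphate, differed by -0.57 (adjusted p = 0.0813). Idi1, the isomerase of isopentenyl pyrophosphate, lay the other way at 1.11 (SE 0.47, adjusted p = 0.146), with 10.01, 9.44, 9.97, 8.98 and 9.63 on the Malt1-/- arrays, against 8.10, 9.12, 8.51, 8.37 and 8.42 on the WT arrays. One Malt1-/- array lay within the WT range.

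Among the squalene and sterol steps, 2 of the 10 genes tested fell and the median difference was -0.30. Lss, which cyclises oxidised squalene to lanosterol, had levels of 10.09, 9.86, 10.05, 9.57 and 9.80 on the Malt1-/- Th17 48 h arrays, against 10.39, 10.56, 10.60, 10.99 and 10.27 on the WT Th17 48 h arrays. The groups did not overlap (log2 difference -0.69, SE 0.19, adjusted p = 0.0264), but a second, dim probe of Lss differed by 0.16, and the mean of the probes did not pass (-0.26, adjusted p = 0.37). Dhcr7, the reductase that makes cholesterol from its last precursor, had 6.80, 6.84, 6.76, 6.73 and 6.91 on the Malt1-/- arrays, against 7.28, 7.93, 7.50, 7.37 and 8.07 on the WT arrays. Its Malt1-/- values were all below its WT values and lay close together (log2 difference -0.82, SE 0.24, adjusted p = 0.0379). Squalene epoxidase (Sqle, -0.37) and the methyl oxidase Msmo1 (-0.24) did not pass, and neither did Ebp, a sterol isomerase (-0.32). Nsdhl, which removes carboxyl groups in sterol demethylation, did not pass on its brightest probe (-0.45, adjusted p = 0.0779). When all kept probes were tested together, 2 other Nsdhl probes were called lower, at -0.79 and -0.66. Cyp51, the lanosterol demethylase, stood at 11.02 in Malt1-/- and 10.96 in WT cells (0.07), and the sterol reductases and desaturase Hsd17b7, Tm7sf2 and Sc5d differed by between -0.28 and 0.20.

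Fatty acid synthesis gave 3 lower calls among 8 genes tested, with a median difference of -0.68, and all 8 differences were negative. Acss2, which makes acetyl-CoA from acetate, had levels of 7.72, 7.37, 7.35, 7.25 and 6.96 on the Malt1-/- Th17 48 h arrays, against 8.43, 8.01, 8.09, 8.20 and 8.05 on the WT Th17 48 h arrays. The groups did not overlap (log2 difference -0.83, SE 0.25, adjusted p = 0.0387). Scd1, the desaturase that makes monounsaturated fatty acids, had 8.23, 7.39, 7.95, 7.52 and 8.67 on the Malt1-/- arrays, against 10.52, 10.60, 10.07, 10.59 and 7.40 on the WT arrays. WT replicate 5 lay at the level of the lowest Malt1-/- array, and the other 4 WT arrays were higher than all Malt1-/- arrays (log2 difference -1.88, SE 0.54, adjusted p = 0.0339). Without WT replicate 5 the Scd1 difference was -2.49, with an adjusted p of 0.00189. Fads2, a desaturase of polyunsaturated fatty acids, had 5.88, 4.79, 4.76, 5.06 and 4.77 on the Malt1-/- arrays, against 6.77, 6.31, 5.92, 7.15 and 5.98 on the WT arrays. They did not overlap (log2 difference -1.38, SE 0.34, adjusted p = 0.0151), and the probe was detected on 1 of the 5 Malt1-/- arrays and on all 5 WT arrays. Its other probe differed by -0.37 without passing. Scd2, the paralogue of Scd1 that is better known from brain, differed by -0.84 (adjusted p = 0.0677), with 7.88 to 8.80 in Malt1-/- and 8.03 to 9.63 in WT cells. ATP citrate lyase (Acly) differed by -0.19, fatty acid synthase (Fasn), whose dim probe was above background on 1 Malt1-/- and 4 WT arrays, by -0.54, the elongase Elovl6 by -0.50 on its brightest probe and 0.98 on the other, and the desaturase Fads1 by -0.04. None of these passed.

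On their brightest probes the regulators did not follow the enzymes in one direction: 0 of 5 were called, and the median difference was -0.03. Srebf2, the SREBP gene most tied to cholesterol synthesis, stood at 9.40 ± 0.29 in Malt1-/- and 9.44 ± 0.37 in WT Th17 cells at 48 h (SD, n = 5 each) on its brightest probe. Its other kept probe, detected on all 40 arrays, ran lower in Malt1-/- cells, from 8.34 to 8.61, against 8.51 to 8.93 in WT cells, with overlap. Srebf1, more tied to fatty acid synthesis, differed by -0.32 without passing. Scap had 8.82, 8.47, 8.77, 8.78 and 8.84 on the Malt1-/- arrays, against 8.16, 7.98, 8.15, 7.92 and 8.12 on the WT arrays. All its Malt1-/- values were above all its WT values, though the difference of 0.67 did not pass (adjusted p = 0.0748), and its dim second probe differed by 0.06. Scap and Idi1 are shown by array because their direction differed, a choice made after their values were seen. Insig1 probes disagreed in sign, with 0.50 for the brightest and -0.43 and -0.27 for the others, none past the threshold. Insig2 differed by -0.56 on its brightest probe (adjusted p = 0.0789), without overlap, and by -1.90 on another probe, which was called when all kept probes were tested (SE 0.38, adjusted p = 0.00437). The called probe was not evenly low. It had 8.04 on Malt1-/- replicate 1 and 6.44, 6.18, 6.38 and 6.63 on the other replicates, against 8.07 to 9.01 on the WT arrays. For transport, the sterol carrier Stard4 differed by 0.36 and the sterol exporter Abcg1 by -0.36, and neither passed.

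**Figure D1:**
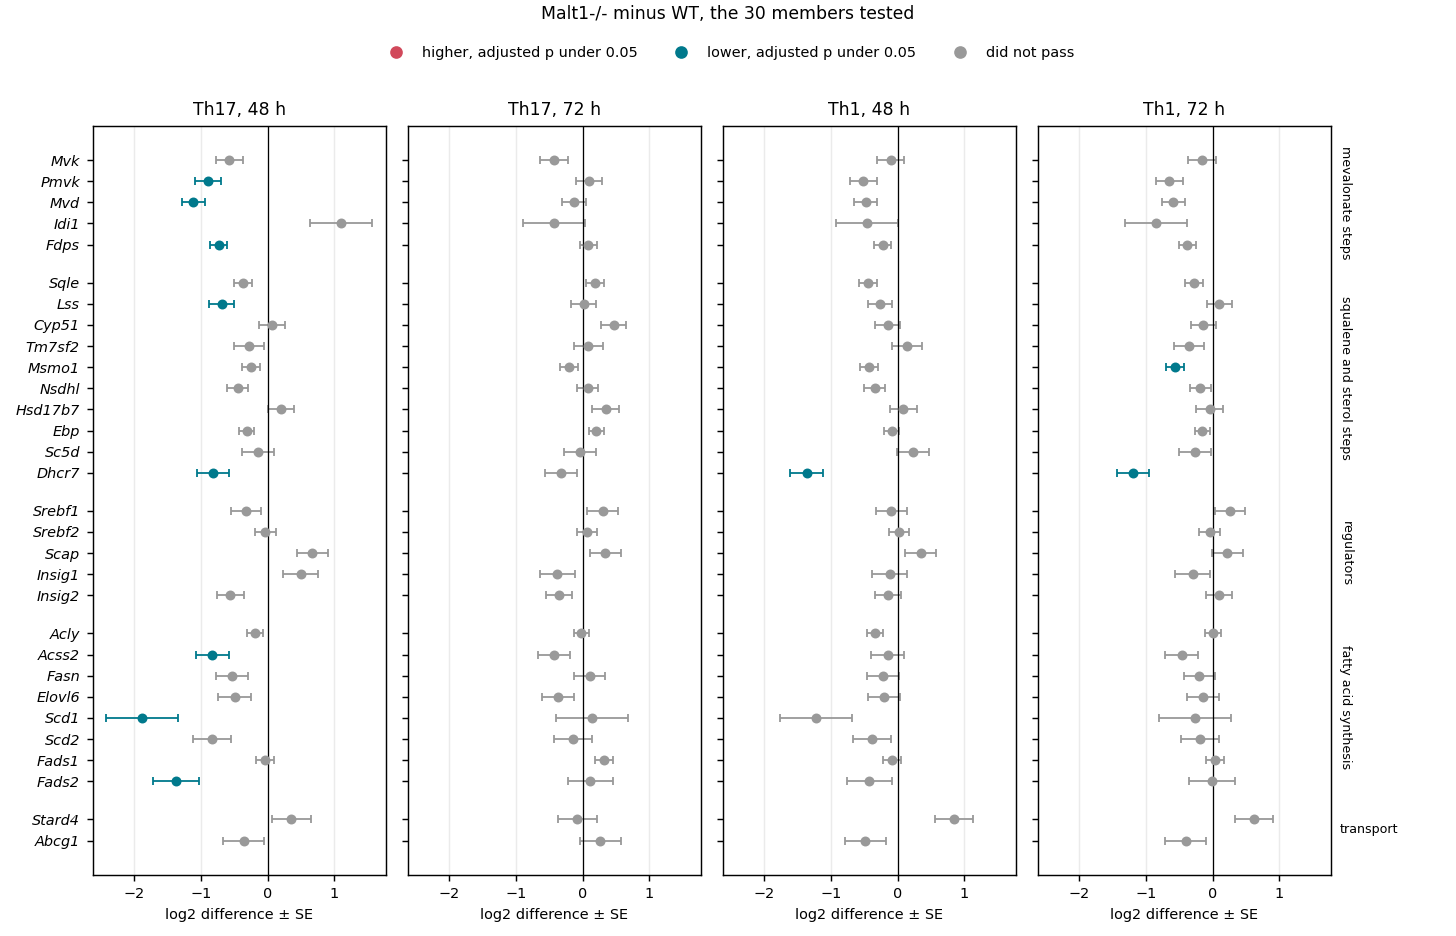
Log2 difference, Malt1-/- minus WT, with its SE for each of the 30 members tested (rows, by role) in the 4 genotype comparisons (panels). Coloured points were called at an adjusted p under 0.05: 8 lower in Th17 cells at 48 h, 0 in Th17 cells at 72 h, 1 lower in Th1 cells at 48 h and 2 lower in Th1 cells at 72 h.

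By position, 7 of the 30 members had all 5 Malt1-/- values below all 5 WT values in Th17 cells at 48 h. Of all genes tested, 4.73% did. Scap was the 1 member with them all above, a direction for which no share of all genes is given. The median over the 30 members of their deviation from their own mean over the 40 arrays ran from -0.27 to 0.12 on the 5 Malt1-/- arrays, against 0.20 to 0.33 on the 5 WT arrays, without overlap. Over the mevalonate and sterol members alone it ran from -0.22 to 0.33, against 0.23 to 0.40, with overlap. Over the fatty acid members it ran from -0.82 to -0.26, against -0.12 to 0.38, without overlap. Mvd, Pmvk, Fdps and Fads2 kept their calls when any single array of either group was left out. Acss2 kept its call only without Malt1-/- replicate 1 or WT replicate 5, Scd1 only without Malt1-/- replicate 5 or WT replicate 5, and Dhcr7 only without WT replicate 1 or 4. Their adjusted p reached 0.0978, 0.0901 and 0.0913. Acss2 was also not called without background correction (-0.51, adjusted p = 0.0681), with the authors' table (-0.51, 0.0686) or without a detection filter (0.0586), and Scd1 and Dhcr7 were not called without a detection filter (0.0561 and 0.0572). Without background correction the differences of Dhcr7 (-0.44) and Fads2 (-0.45) were smaller but called. Lss lost its call without Malt1-/- replicates 2, 4 or 5 or WT replicates 3 or 4, with an adjusted p of up to 0.0778. Without the arrays that stood closer to another group, of which WT replicate 5 belongs here, 14 members were called, 13 lower and 1 higher, and 7 of the 8 were among them, where 7.58% of all genes were then called lower and 7.81% higher. Dhcr7 was the one lost (adjusted p = 0.0693), and Mvk, Nsdhl, Ebp, Insig2, Elovl6 and Scd2 were added as lower and Scap as higher. With other cell types, the summed myeloid marker signal ran from 253 to 1763 on Malt1-/- arrays and from 181 to 271 on WT arrays, with 1 of 5 tested markers called higher (S100a8, 2.30), while Itgam and Cd68 had no kept probe. The summed signal of the 3 B cell markers tested ran from 104 to 331 on Malt1-/- arrays and from 140 to 657 on WT arrays. The Th17 marker sum ran from 5360 to 16126 on Malt1-/- arrays and from 24374 to 27103 on WT arrays, with Il17a (-2.85) and Il17f (-1.90) called lower. The part of these in the member differences was not tested.

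**Figure D2:**
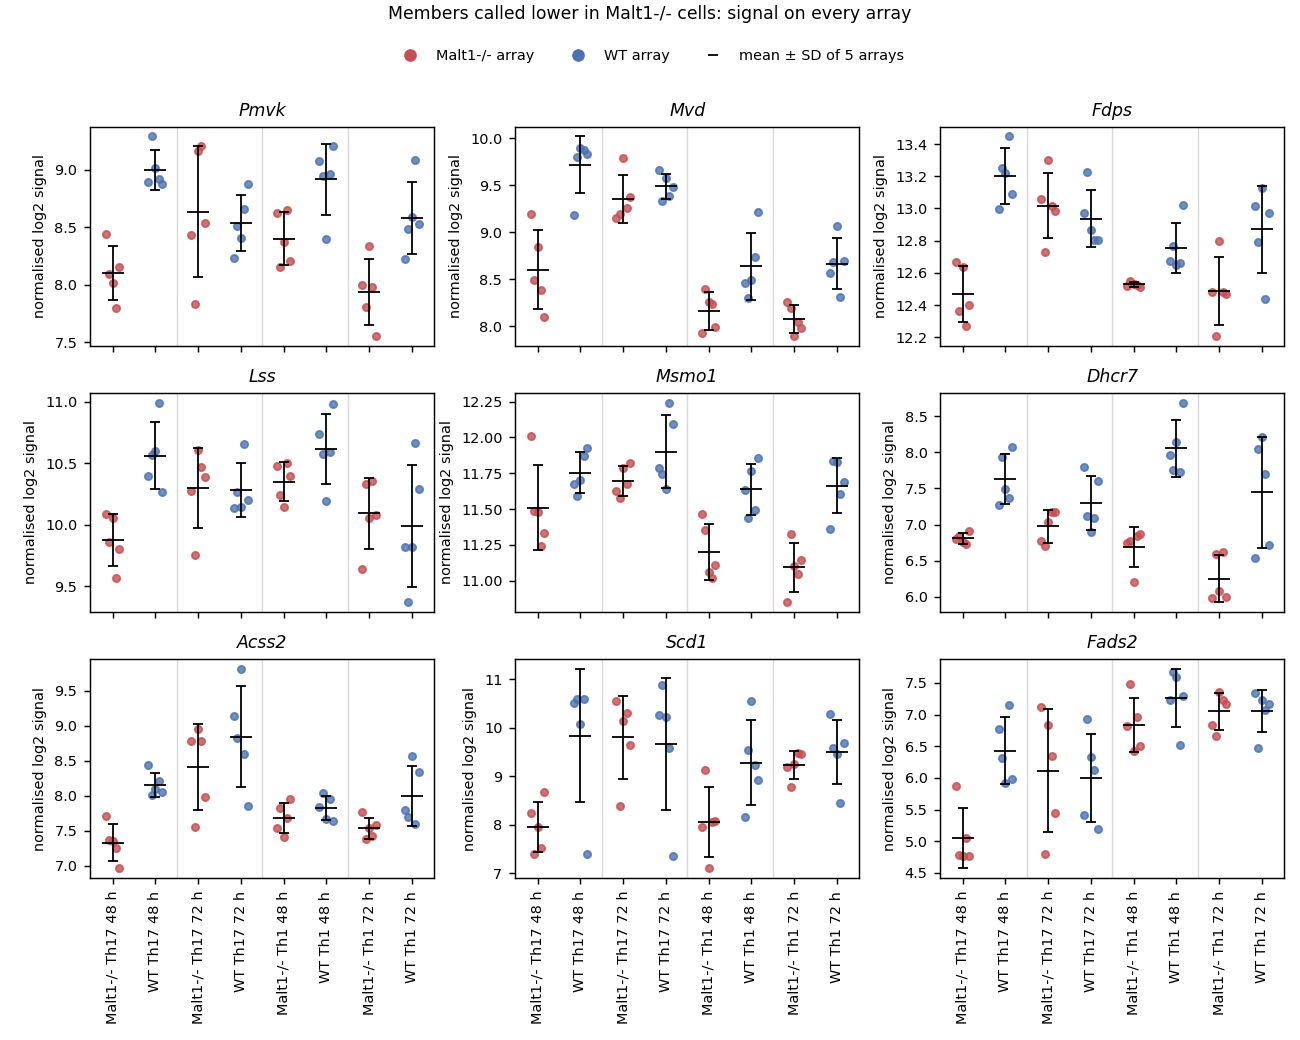
Normalised log2 signal on every array (points) with mean ± SD of 5 arrays (black) for the 9 members called lower in Malt1-/- cells in at least 1 genotype comparison, in the 8 groups. In Th17 cells at 48 h the Malt1-/- points lie below the WT points for Pmvk, Fdps, Lss, Dhcr7, Acss2 and Fads2, and a single low WT array stands apart for Scd1.

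In Th17 cells at 72 h no member was called between Malt1-/- and WT cells in limma, where 1.53% of all genes tested were called lower and 2.89% higher. At an unadjusted p under 0.05 there were 3 members, and the share of all genes at that looser threshold is not given. The median difference was 0.07, against 0.04 over all genes, with 17 members above 0 and 13 below. Mvd had 9.15, 9.20, 9.79, 9.26 and 9.38 on the Malt1-/- arrays, against 9.66, 9.33, 9.58, 9.39 and 9.48 on the WT arrays, a difference of -0.13. Fdps had 13.06, 12.73, 13.30, 13.01 and 12.98 on the Malt1-/- arrays, against 12.97, 13.23, 12.87, 12.80 and 12.80 on the WT arrays (0.08). Pmvk had 8.43, 7.83, 9.17, 9.21 and 8.54 on the Malt1-/- arrays, against 8.23, 8.51, 8.41, 8.66 and 8.88 on the WT arrays (0.10). For each of these mevalonate genes the genotypes overlapped. Scd1 had 10.55, 8.38, 10.13, 10.31 and 9.64 on the Malt1-/- arrays, against 10.27, 10.89, 10.22, 9.58 and 7.36 on the WT arrays (0.14). One array of each genotype was low, Malt1-/- replicate 2 and WT replicate 5, and both are among those closer to another group. The Insig2 probe called at 48 h was again lower when all kept probes were tested (-1.75, adjusted p = 0.00922), while the brightest Insig2 probe differed by -0.36 without passing. The called probe had 8.41, 6.50, 6.85, 7.68 and 6.36 on the Malt1-/- arrays, against 8.06 to 9.54 on the WT arrays, with overlap. Without the arrays closer to another group, which took 1 Malt1-/- and 2 WT arrays, 6 members were called: Cyp51 (0.81), Hsd17b7 (0.67) and Fads1 (0.45) higher, and Mvk (-0.68), Elovl6 (-0.68) and Insig2 (-0.52) lower. Of all genes, 8.62% were then called higher and 7.08% lower. Myeloid marker signal here ran from 445 to 5700 on Malt1-/- arrays and from 161 to 307 on WT arrays, with S100a8, S100a9 and Fcer1g, 3 of the 5 tested, called higher. The Th17 marker sum ran from 3847 to 7903 on Malt1-/- arrays and from 15604 to 26653 on WT arrays. All 4 T cell markers had negative differences, with a median of -0.46 and 1 called (Cd4, -0.89), and the 1 CD8 T cell marker tested, Cd8b1, was called lower (-0.65). Their part in the values at 72 h was not tested.

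The genotype effect in Th17 cells was set against itself over time, as the effect at 72 h minus that at 48 h. One member, Fdps, was called (log2 difference 0.82, SE 0.18, adjusted p = 0.046), where 0.121% of all genes tested were called in either direction. Its genotype difference was 0.08 at 72 h and -0.73 at 48 h. The 30 members had a median of 0.40, against 0.05 over all genes, and 26 were above 0. The larger ones that did not pass were Scd1 at 2.02, Idi1 in the opposite direction at -1.53 (adjusted p = 0.235), Fads2 at 1.49, Pmvk at 1.00 (adjusted p = 0.0775) and Mvd at 0.98 (adjusted p = 0.0655). The Fdps call held in 5 of the 20 fits that left out 1 array, with an adjusted p of up to 0.104, was not made with the mean of its 2 probes (0.45, adjusted p = 0.439), and stood with 4 more members without the arrays closer to another group, where 3.18% of all genes were called. The single arrays whose removal kept it were Malt1-/- replicates 2 and 4 at 72 h, WT replicates 1 and 2 at 72 h and WT replicate 5 at 48 h.

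In Th1 cells Dhcr7 was lower in Malt1-/- than in WT cells at both times. At 48 h Dhcr7 had 6.75, 6.77, 6.20, 6.84 and 6.87 on the Malt1-/- Th1 arrays, against 7.96, 7.75, 8.14, 7.73 and 8.69 on the WT Th1 arrays. Every WT array was above every Malt1-/- array, and the group means differed 2.58-fold (log2 difference -1.37, SE 0.24, adjusted p = 0.000847). It was the only one of the 30 members called at 48 h, where 0.606% of all genes tested were called lower and 0.783% higher. At 72 h it had 5.98, 6.59, 6.08, 6.62 and 5.99 on the Malt1-/- arrays, against 6.54, 8.05, 8.21, 7.70 and 6.72 on the WT arrays. WT replicates 1 and 5 lay within or just above the Malt1-/- range and the other 3 lay well above it (log2 difference -1.19, SE 0.24, adjusted p = 0.00249). Dhcr7 kept both calls when any single array was left out, and without background correction, where the differences were -0.76 at 48 h and -0.59 at 72 h. In a fit of the 72 h Th1 arrays alone its adjusted p was 0.147.

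Msmo1, the methyl oxidase of the sterol steps, was the other member called in Th1 cells, at 72 h. It had 10.85, 11.32, 11.10, 11.04 and 11.15 on the Malt1-/- arrays, against 11.36, 11.84, 11.83, 11.61 and 11.69 on the WT arrays. The genotypes did not overlap (log2 difference -0.57, SE 0.13, adjusted p = 0.0117). These 2 of 30 were called lower where 0.923% of all genes tested were called lower and 1.85% higher. The call of Msmo1 was lost without WT replicate 2 (-0.53, adjusted p = 0.0533) and in a fit of the 72 h Th1 arrays alone (adjusted p = 0.124). Without the arrays closer to another group, Mvd (-0.71) and Fdps (-0.42) were called lower at 72 h too, and Scd1 (-1.77) at 48 h, where 2.32% of all genes at 72 h and 1.66% at 48 h were then called lower.

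Most other members had negative differences in Th1 cells that did not pass. At 48 h, 24 of the 30 differences were below 0, with a median of -0.21 against 0.01 over all genes, and at 72 h 23 were below 0, with a median of -0.19 against a value near 0. All 5 mevalonate genes were below 0 at both times: at 72 h Idi1 differed by -0.85, Pmvk by -0.65 (adjusted p = 0.0683) and Mvd by -0.59 (adjusted p = 0.0623). Scd1 at 48 h had 7.96, 9.12, 7.10, 8.05 and 8.07 on the Malt1-/- arrays, against 8.15, 9.53, 10.56, 9.24 and 8.92 on the WT arrays, a difference of -1.22 that did not pass (adjusted p = 0.334). Stard4, which carries sterols between membranes, had the largest positive difference at both times, 0.85 at 48 h (adjusted p = 0.156) and 0.62 at 72 h. None of the 5 regulators passed at either time, and the Insig2 probe called in Th17 cells differed by -1.41 at 48 h (adjusted p = 0.0702) and -1.12 at 72 h (0.139) among all kept probes. At 48 h that probe had 8.39 on Malt1-/- replicate 2 and 6.38 to 6.68 on the other replicates, against 8.12 to 8.50 in WT cells. At 72 h it had 8.76 on Malt1-/- replicate 1 and 6.61 to 7.70 on the other replicates, against 8.14 to 8.98 in WT cells. Myeloid marker sums on Th1 arrays at 48 h ran from 142 to 182 in both genotypes, and at 72 h from 165 to 216 in Malt1-/- and from 127 to 244 in WT cells.

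Whether the genotype effect differed between lineages was tested at each time as the effect in Th17 minus that in Th1 cells. No member was called at 48 h, where 0.14% of all genes tested were called in either direction. None was called at 72 h either, where 0.699% of all genes were called. At an unadjusted p under 0.05 in limma there were 3 members at 48 h and 6 at 72 h. The share of all genes at that looser threshold is not given, so these counts are not read as an excess. The 30 members had a median of -0.26 at 48 h and of 0.28 at 72 h, against -0.02 and 0.03 over all genes. In Th1 cells a change of the effect with time was called for 0 of 30 members, where 0.0746% of all genes were called. At an unadjusted p under 0.05 there was 1 member, again with no share of all genes given. So the 8 calls in Th17 cells and the single call in Th1 cells at 48 h are not shown to differ between lineages. Dhcr7 was lower in both lineages at 48 h, by -0.82 in Th17 and -1.37 in Th1 cells.

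Neighbouring genes of the same metabolism were counted beside the members, to be read against the shares of all genes called: 3.41% higher and 2.97% lower in Th17 cells at 48 h, 1.53% lower in Th17 cells at 72 h and 0.783% higher in Th1 cells at 48 h. Of 18 other genes of fatty acid synthesis and elongation, 3 were lower in Malt1-/- Th17 cells at 48 h and 0 higher: Slc25a1, which exports citrate from mitochondria for acetyl-CoA (log2 difference -0.84, SE 0.19, adjusted p = 0.00764), Mid1ip1, a known activator of acetyl-CoA carboxylase (-0.83, adjusted p = 0.0339), and Dgat2, which makes triglyceride (-1.32). Dgat2 was not detected on any Malt1-/- array there. With its signals there raised to the lowest detected signal of each array, the fall was 1.97-fold, a value with no allowance for spread. Dgat2 was lower at 72 h too (-1.19, adjusted p = 0.0423), 1 of 18. Of 11 fatty acid oxidation genes, Acadm, an acyl-CoA dehydrogenase, was lower at 48 h in Th17 cells (-0.37). Of 10 genes of the isoprenoid branch, which uses farnesyl pyrophosphate for ubiquinone and protein anchors, 2 were higher in Th17 cells at 48 h: Coq2 (0.49) and Fntb (0.48). Of 8 genes of SREBP processing, 0 passed in any genotype comparison, with medians of 0.29 and -0.04 in Th17 cells and 0.19 and 0.25 in Th1 cells at 48 h and 72 h. Of 12 genes of sterol handling, Npc2, a lysosomal sterol carrier, was lower in Th17 cells at 72 h (-0.88), and Ch25h, which makes an oxysterol, was higher in Th1 cells at 48 h (1.72).

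Between lineages, many sterol pathway genes were higher in Th17 than in Th1 cells in Malt1-/- cells at 72 h. There 15 of the 30 members were called higher and 1 lower in Th17 cells, where 11.6% of all genes tested were called higher and 9.16% lower. The 15 held 3 of the 5 mevalonate genes, 9 of the 10 sterol genes, Acss2, Fads1 and Abcg1, and Fads2 was the lower one. In WT cells at 72 h 3 were higher and 1 lower (9.66% and 9.2% of all genes). At 48 h, 3 were higher and 1 lower in Malt1-/- cells (9.83% and 8.72% of all genes), and 6 higher and 0 lower in WT cells (10.2% and 7.26%). These comparisons share arrays with the genotype comparisons, and the larger number in Malt1-/- cells at 72 h is not shown to differ from that in WT cells: the test of that difference is the lineage difference in the genotype effect above, which called no member. Without the arrays closer to another group, 3 were higher and 2 lower in Malt1-/- cells at 48 h (10.8% and 9.67% of all genes). In WT cells 8 were higher at 48 h (9.81% of all genes). At 72 h in WT cells 4 were higher (9.37% of all genes), 3 of them among the 4 called with all arrays. The lineage differences of the genotype effect again gave 0, where 1.69% of all genes were called at 48 h and 3.23% at 72 h. Of the 5 myeloid markers tested, 4 were called higher in Th17 than in Th1 cells in Malt1-/- cells at 72 h (median difference 2.13) and 3 at 48 h (1.34), against 0 in WT cells at either time. Their part in the lineage values was not tested.

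Mvd had a clear lineage difference in 3 of these 4 comparisons. At 72 h it had 9.15, 9.20, 9.79, 9.26 and 9.38 on the Malt1-/- Th17 arrays, against 8.26, 8.20, 7.90, 8.05 and 7.98 on the Malt1-/- Th1 arrays. The lineages did not overlap (log2 difference 1.28, SE 0.18, adjusted p = 7.46e-07). In WT cells it was higher in Th17 than in Th1 cells at 72 h (9.49 ± 0.14 against 8.67 ± 0.27, SD, n = 5 each; log2 difference 0.82) and at 48 h (1.08). In Malt1-/- cells at 48 h it was not called, at 8.60 ± 0.42 in Th17 and 8.16 ± 0.20 in Th1 cells (adjusted p = 0.0768). Nsdhl at 72 h had 8.79, 8.32, 8.98, 9.08 and 8.77 on the Malt1-/- Th17 arrays, against 7.67, 8.10, 7.53, 7.59 and 8.02 on the Malt1-/- Th1 arrays. All Th17 values were above all Th1 values (log2 difference 1.01, SE 0.16, adjusted p = 7.45e-06), and the same held in WT cells, with 8.67, 8.92, 8.53, 8.56 and 8.87 in Th17, against 7.91, 7.64, 7.97, 8.12 and 8.20 in Th1 cells (0.74). Squalene epoxidase, a rate-limiting step of the sterol branch, had 11.64, 11.48, 11.69, 11.54 and 11.83 on the Malt1-/- Th17 72 h arrays, against 10.92, 11.13, 11.02, 11.02 and 10.95 on the Malt1-/- Th1 72 h arrays. These did not overlap (log2 difference 0.63, SE 0.13, adjusted p = 0.000418). In WT cells at 72 h Sqle differed by 0.16 without passing. The other sterol genes called in Malt1-/- cells at 72 h were Cyp51 (0.74), Tm7sf2 (0.69), Msmo1 (0.60), Hsd17b7 (0.74), Ebp (0.53), Sc5d (0.88) and Dhcr7 (0.72), and Lss at 0.21 was the exception. The Tm7sf2 probe was detected on 1 of the 5 Malt1-/- Th1 arrays there, so the size of its difference is uncertain. The count of 16 stayed between 13 and 16 when any single array was left out, and was 16 without the arrays closer to another group, 15 of them shared. The call of Dhcr7 was lost without Th1 replicate 1, 3 or 5 or Th17 replicate 3, 4 or 5 (adjusted p up to 0.0751), without background correction (0.30, adjusted p = 0.110) and with the authors' table (0.30, adjusted p = 0.112).

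Ebp, the sterol isomerase, was higher in Th17 cells at 48 h in both genotypes. It had 10.44, 10.63, 10.89, 10.54 and 10.67 on the Malt1-/- Th17 arrays, against 10.31, 10.32, 10.43, 10.19 and 10.24 on the Malt1-/- Th1 arrays, and 10.96, 11.30, 10.97, 10.75 and 10.77 on the WT Th17 arrays, against 10.48, 10.35, 10.23, 10.39 and 10.47 on the WT Th1 arrays. No Th1 value reached a Th17 value within a genotype (differences of 0.34 and 0.57). The call in Malt1-/- cells was not made when arrays were scaled to a common median (0.23, adjusted p = 0.261), a scaling that moved the median of all genes in that comparison by -0.13. It was also lost without Th1 replicate 4 or 5 or Th17 replicate 2, 3 or 5 (adjusted p up to 0.109). Mvk at 48 h had 6.05, 5.89, 5.48, 5.92 and 5.57 on the WT Th17 arrays, against 4.56, 5.09, 5.09, 5.37 and 5.17 on the WT Th1 arrays, where its probe was detected on 5 and 1 arrays. They did not overlap (log2 difference 0.72, SE 0.20, adjusted p = 0.0107), and without background correction the difference was 0.22, still called. The other genes called in WT cells at 48 h were Fdps (0.45), Nsdhl (0.48) and Sc5d (0.82). With the mean of its probes the Fdps difference was 0.35 and did not pass (adjusted p = 0.248). The call of Nsdhl was lost without WT Th1 replicate 1 or 4 or WT Th17 replicate 1, 3 or 4 (adjusted p up to 0.114). It was also not made with the common median scaling (0.41, adjusted p = 0.095) or in a fit of the compared groups alone (0.48, adjusted p = 0.0906).

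Fatty acid genes did not share one direction between lineages. Fads1, the desaturase next to Fads2 in the genome, was higher in Malt1-/- Th17 cells at 48 h, with 11.69, 11.65, 11.60, 11.76 and 11.63 on Th17 arrays, against 11.37, 11.40, 11.03, 11.17 and 11.25 on Th1 arrays. They did not overlap (log2 difference 0.42, SE 0.13, adjusted p = 0.0228), and it was called at 72 h too (0.61), though not at 48 h with the common median scaling (0.25, adjusted p = 0.31). Fads2 went the opposite way, with 5.88, 4.79, 4.76, 5.06 and 4.77 on the Malt1-/- Th17 48 h arrays, against 6.82, 7.49, 6.43, 6.96 and 6.50 on the Malt1-/- Th1 48 h arrays. Every Th17 value was lower (log2 difference -1.79, SE 0.34, adjusted p = 0.000148). It was lower in Th17 cells at 72 h in Malt1-/- (-0.94, adjusted p = 0.0445) and WT cells (-1.06, adjusted p = 0.0236), both called but lost without the arrays closer to another group (adjusted p = 0.143 and 0.122). With the mean of its probes the 72 h differences were -0.54 (adjusted p = 0.115) and -0.62 (0.0664), and without background correction -0.36 (0.0556) and -0.42 (called in WT). Both calls were also lost when most single arrays (7 of 10 in Malt1-/- cells) or some (4 of 10 in WT cells) were left out. Without Malt1-/- Th17 replicate 2 alone, the 72 h difference in Malt1-/- cells was -0.61 (adjusted p = 0.216). Acss2 was higher in WT Th17 cells at 72 h, with 9.14, 8.82, 9.81, 8.59 and 7.85 on Th17 arrays, against 7.80, 7.70, 8.56, 7.60 and 8.34 on Th1 arrays. The values overlapped (log2 difference 0.84, SE 0.25, adjusted p = 0.0122), and without WT Th17 replicate 3, the highest array, the difference was 0.60 (adjusted p = 0.0732). In Malt1-/- cells at 72 h Acss2 was called too (0.88). Abcg1, which exports sterols to lipoproteins, was higher in Malt1-/- Th17 cells at 48 h, with 5.86, 6.20, 6.01, 6.03 and 5.44, against 5.27, 4.82, 4.62, 4.80 and 5.40 in Malt1-/- Th1 cells. They did not overlap (log2 difference 0.93, SE 0.31, adjusted p = 0.0301), but the probe was detected on 1 of the 5 Malt1-/- Th1 arrays, so the size of the difference is uncertain. Without background correction it was 0.28 (adjusted p = 0.0602), from the authors' values 0.28 (0.0601), with median scaling 0.77 (0.0979) and without a detection filter 0.93 (0.0515), none past the threshold. At 72 h Abcg1 was called higher in Malt1-/- Th17 cells (log2 difference 1.06, SE 0.31, adjusted p = 0.0102), though its probe was not detected on any Malt1-/- Th1 array. With the Th1 signals raised to the lowest detected signal of each array, the means differed 1.89-fold, a value with no allowance for spread. That call was lost without Malt1-/- Th17 replicate 3 (0.86, adjusted p = 0.0519). In Malt1-/- cells at 48 h the call of Abcg1 was lost without replicate 2, 3 or 4 of either lineage (adjusted p up to 0.0764), and that of Fads1 without Th1 replicate 3 or 4 or Th17 replicate 4 (up to 0.0705).

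**Figure D3:**
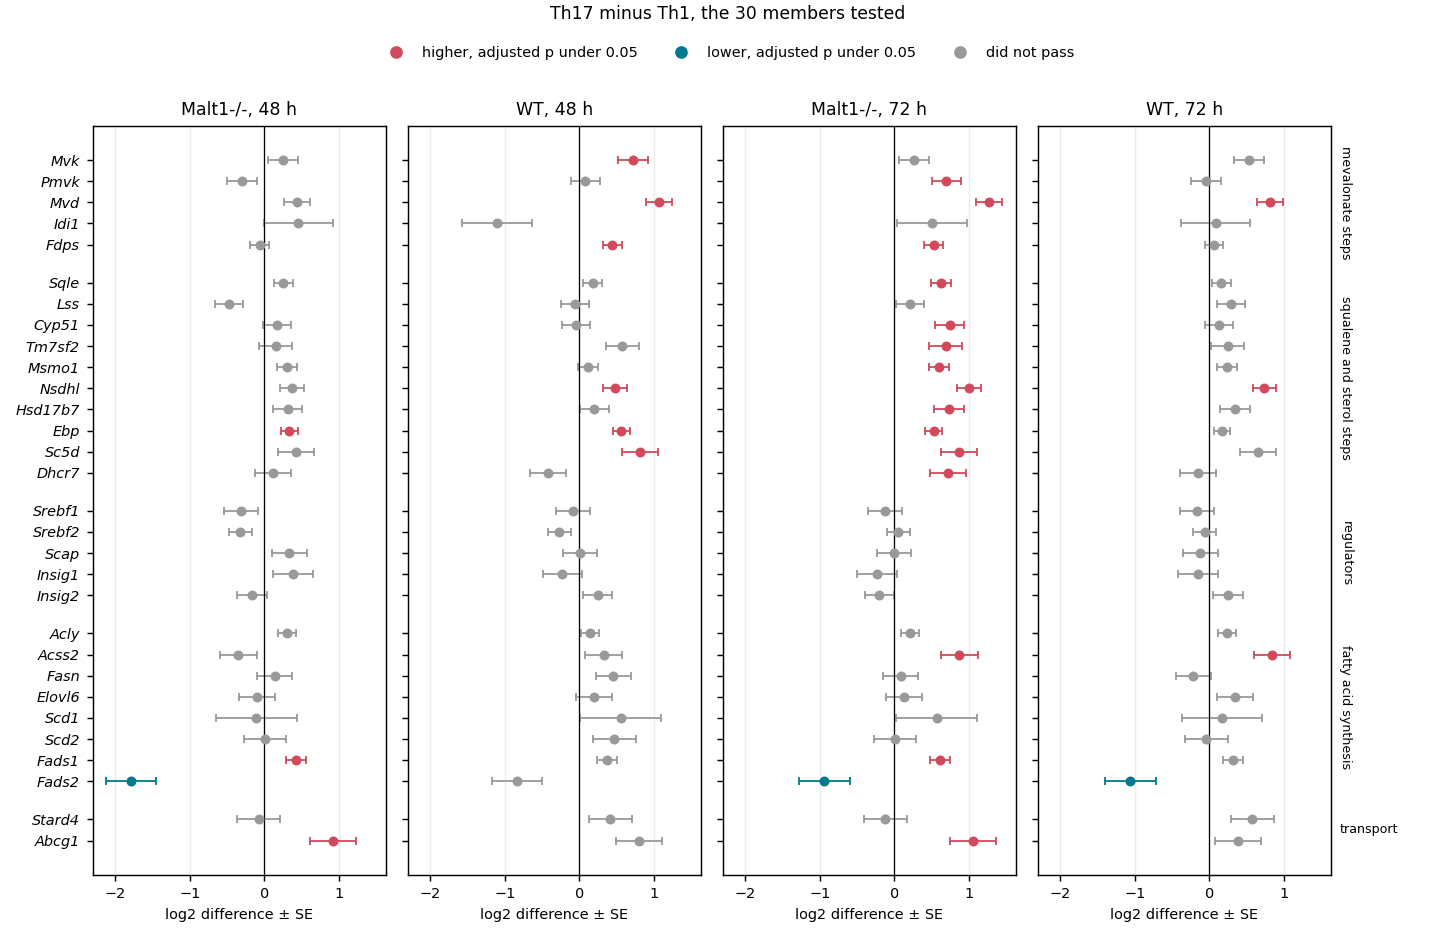
Log2 difference, Th17 minus Th1, with its SE for each of the 30 members tested (rows, by role) in each genotype and time (panels). In Malt1-/- cells at 72 h 15 members were called higher and 1 lower. In WT cells at 72 h 3 were higher and 1 lower, and Mvd, Nsdhl and Acss2 (higher) and Fads2 (lower) were called in both genotypes at 72 h.

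Over time, Mvd, Fdps and Acss2 rose in Malt1-/- Th17 cells. Between 72 h and 48 h, 3 of 30 were called higher and 0 lower in Malt1-/- Th17 cells, where 0.578% of all genes tested were called higher and 0.121% lower. In WT Th17 cells 0 were higher and 1 lower (4.97% and 7.36% of all genes). In Malt1-/- Th1 cells 1 was higher and 1 lower (4.15% and 1.8%), and in WT Th1 cells 0 were higher and 2 lower (5.57% and 4.92%). The test of a difference between genotypes in these changes is the change of the genotype effect over time, which called Fdps in Th17 cells and no member in Th1 cells.

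The 3 that rose in Malt1-/- Th17 cells were among those low in these cells at 48 h, so these differences use the same 48 h arrays. Acss2 had 8.79, 7.55, 8.96, 8.78 and 7.98 on the Malt1-/- Th17 72 h arrays, against 7.72, 7.37, 7.35, 7.25 and 6.96 on the 48 h arrays. All but replicate 2 of the 72 h arrays were above all 48 h arrays (log2 difference 1.08, SE 0.25, adjusted p = 0.0252). Fdps stood at 13.02 ± 0.20 at 72 h and 12.47 ± 0.17 at 48 h (SD, n = 5 each), without overlap (log2 difference 0.55, SE 0.13, adjusted p = 0.0279), though with the mean of its probes the difference was 0.23 and did not pass (adjusted p = 0.641). Mvd stood at 9.36 ± 0.26 at 72 h and 8.60 ± 0.42 at 48 h, overlapping by one 48 h array (log2 difference 0.75, SE 0.18, adjusted p = 0.0311). In these cells 26 of the 30 differences were above 0, with a median of 0.24 against 0.01 over all genes. The number called ran from 0 to 7 when single arrays of the 2 groups were left out and was 9 without the arrays closer to another group, of which 72 h replicate 2 belongs here. Of all genes, 3.72% were then called higher and 1.48% lower. Leaving out that replicate alone gave 7. None was called without 48 h replicate 2, 4 or 5 or without 72 h replicate 3, where the adjusted p of Mvd was 0.179.

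In WT Th17 cells Ebp was lower at 72 h, with 10.42, 10.71, 10.45, 10.52 and 10.59 on the 72 h arrays, against 10.96, 11.30, 10.97, 10.75 and 10.77 on the 48 h arrays. The times did not overlap (log2 difference -0.41, SE 0.11, adjusted p = 0.0164), and the call was lost without 48 h replicate 2 (-0.32, adjusted p = 0.069) or 72 h replicate 3 (-0.39, adjusted p = 0.061). Acss2 did not pass there, with 9.14, 8.82, 9.81, 8.59 and 7.85 at 72 h, against 8.43, 8.01, 8.09, 8.20 and 8.05 at 48 h (0.69, adjusted p = 0.0593). Cyp51 did not pass either, with 10.65, 10.33, 9.72, 10.86 and 10.90 at 72 h, against 10.69, 10.81, 11.06, 11.07 and 11.16 at 48 h (-0.46). In Malt1-/- Th1 cells Insig2 rose, with 9.47, 9.13, 9.52, 9.15 and 9.70 at 72 h, against 8.60, 9.08, 8.79, 8.53 and 8.60 at 48 h. They did not overlap (log2 difference 0.67, SE 0.20, adjusted p = 0.0361). The Insig2 call was not made with the mean of its probes (0.71, adjusted p = 0.104) or with the common median scaling (0.62, adjusted p = 0.0541). Cyp51 fell in the same cells, with 9.67, 10.45, 10.43, 10.49 and 10.05 at 72 h, against 10.81, 10.83, 10.89, 10.94 and 10.78 at 48 h. These did not overlap either (log2 difference -0.63, SE 0.19, adjusted p = 0.04), and each of these 2 calls was lost when any of 7 of the 10 arrays was left out. They held without Malt1-/- Th1 48 h replicate 2, 72 h replicate 2 and 72 h replicate 4. Without a detection filter neither was called (adjusted p = 0.0545 for Insig2 and 0.059 for Cyp51). Idi1 did not pass there, with 7.11, 8.13, 6.82, 9.02 and 8.72 at 72 h, against 8.57, 8.89, 9.68, 9.26 and 9.34 at 48 h (-1.19, adjusted p = 0.121). In WT Th1 cells Cyp51 was lower at 72 h, with 10.59, 10.12, 10.04, 10.96 and 10.08 at 72 h, against 11.08, 10.77, 11.27, 10.59 and 11.29 at 48 h (log2 difference -0.64, SE 0.19, adjusted p = 0.0266). Lss was the other, with 9.82, 9.37, 9.82, 10.66 and 10.29 at 72 h, against 10.74, 10.58, 10.20, 10.59 and 10.98 at 48 h (log2 difference -0.62, SE 0.19, adjusted p = 0.0292). With the mean of its probes the Lss difference was -0.19 (adjusted p = 0.511). Both overlapped, and both calls were lost when single arrays were left out: Cyp51 without 48 h replicate 1, 3 or 5 or 72 h replicate 2, 3 or 5 (adjusted p up to 0.0915), and Lss without 48 h replicate 1 or 5 or 72 h replicate 1, 2 or 3 (up to 0.137). Nsdhl did not pass, with 7.91, 7.64, 7.97, 8.12 and 8.20 at 72 h, against 8.03, 8.50, 8.72, 8.25 and 8.56 at 48 h (-0.44, adjusted p = 0.0651).

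**Figure D4:**
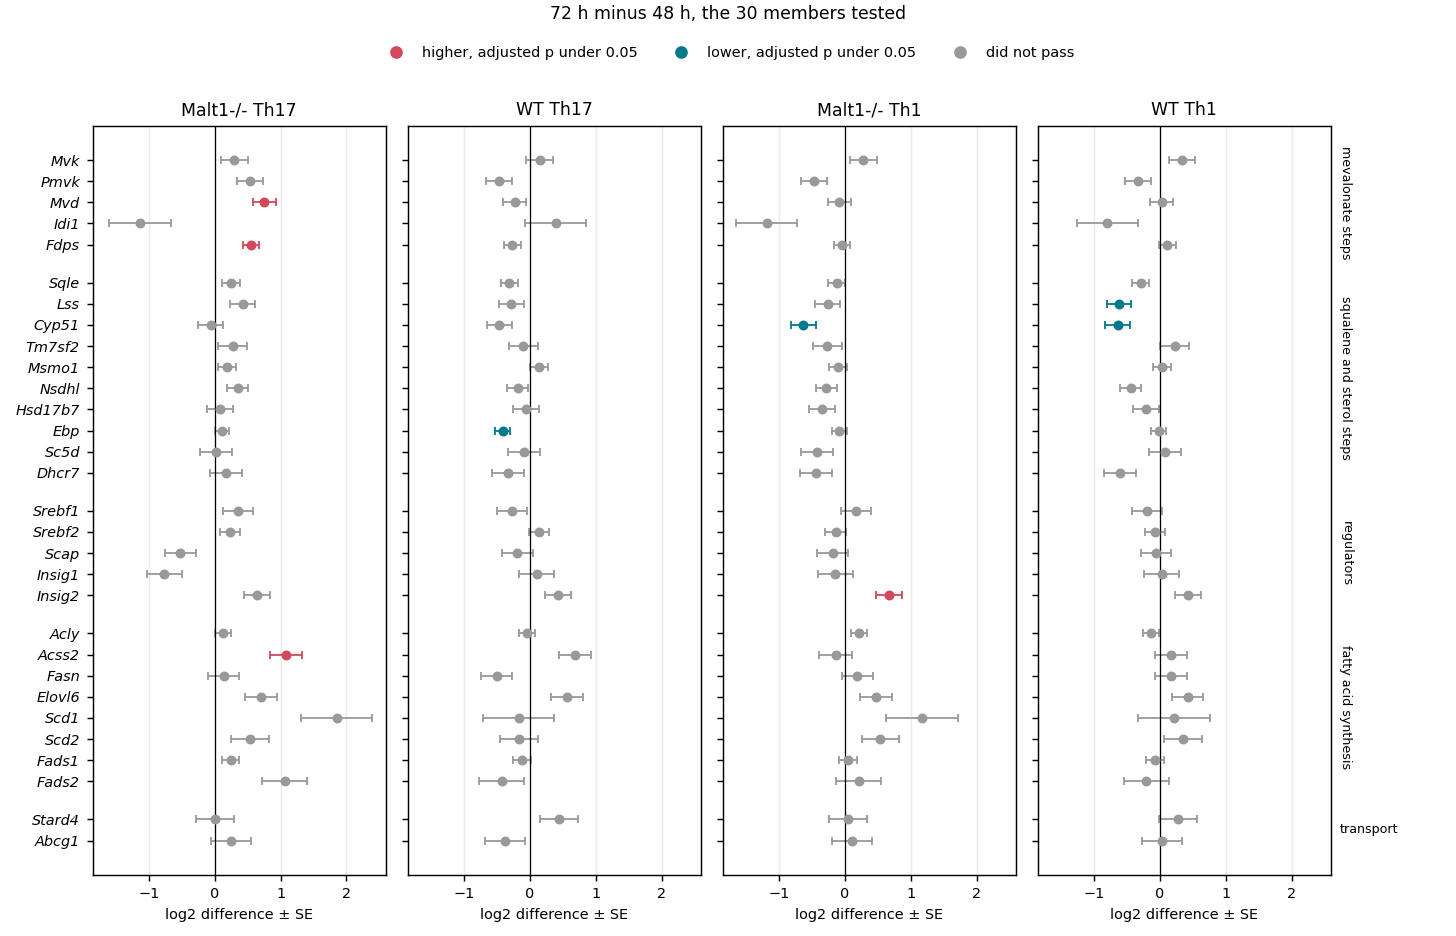
Log2 difference, 72 h minus 48 h, with its SE for each of the 30 members tested (rows, by role) in each genotype and lineage (panels). In Malt1-/- Th17 cells 3 members (Mvd, Fdps and Acss2) were called higher, and 26 of 30 differences were above 0.

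Some members varied little over the 8 groups on their brightest probe. Group means of Acly lay between 12.73 and 13.23, those of Srebf2 between 9.40 and 9.72, and those of Srebf1, a dim probe, between 5.63 and 6.11. The other kept Srebf2 probe did not stay level. In Malt1-/- cells at 72 h it ran from 8.51 to 8.79 in Th17 and from 7.74 to 8.31 in Th1 cells, without overlap. On the brightest probes, the widest ranges of group means were those of Fads2, from 5.05 in Malt1-/- Th17 cells at 48 h to 7.26 in WT Th1 cells at 48 h, and of Scd1, from 7.95 in Malt1-/- Th17 to 9.84 in WT Th17 cells, both at 48 h. Across the 40 arrays, after each group's mean was removed, the median Pearson correlation over the 435 pairs of members was 0.084, with 62.1% of pairs above 0. Over the 105 pairs of the 15 mevalonate and sterol genes it was 0.164, and between members and all other genes tested it was -0.0008. These are descriptions, with no test, and the arrays share hybridisation and normalisation. Fads2 (0.218), Lss (0.186) and Fads1 (0.185) had the highest median correlation with the other members, and Insig1 the lowest (-0.138).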

How the data were processed

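Bead-level summaries of 40 Illumina MouseWG-6 v2 arrays were used. Per the file headers, the deposited non-normalised file holds 1 intensity and 1 detection fraction per probe and array. The detection fraction is high where signal is above the negative controls and was turned into a detection p. The authors' deposited value table was used as an alternative. The log2 values deposited there by the authors equal their intensities after quantile normalisation, centred per probe, to within 0.0149, as found by comparing both files. The scanner software and its settings are not given in the sources used here.

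Intensities were background-corrected and quantile-normalised with neqc (offset 16) in limma 3.58.1 (R 4.3.3). Probes with a detection p under 0.05 on at least 5 of 40 arrays were kept (20739 of 45281). Of all probes, 34885 had 1 gene symbol in the platform table, 18 several and 10378 none. A gene was represented by its kept probe with the highest mean. All 8 groups were fitted together with lmFit and eBayes, and p-values were adjusted by Benjamini-Hochberg over 10730 genes for each of 16 comparisons. The code was tested on simulated data. Values on each array are given for members called in a genotype comparison or difference of the genotype effect and for the 3 of smallest p in each other comparison. Of each other list, up to 3 genes of smallest p in the genotype comparisons are named. The members, lists and named genes were chosen with earlier results of these data known.

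Alternatives changed the background correction, scaling, detection filter, choice of probe and arrays fitted, used the authors' table, or added the replicate number as a block. Samples share replicate numbers across groups, but over 140 same-number pairs the median correlation of deviations was 0.014 (range -0.416 to 0.513), 38 were over 0.1, and 6 of 40 arrays correlated best with their own number. The numbers were therefore not taken to pair the samples. All columns of per-sample values were used.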

Additional observations from a re-analysis of the deposited data

Results flagged for a closer look

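In each of the 8 groups, the array farthest from the rest was examined for 18 members, 144 sets of 5 arrays in all. An array stood apart where its gap to the nearest other array, as a share of the group's whole range, was above 0.71. Chance gives about 1 such array in 20 sets, and 9 were found. For genes called at 48 h, these were Mvd on WT Th17 replicate 1 (gap 0.871 of the range, level 9.19 with the other arrays at 9.80 to 9.89), Scd1 on WT Th17 replicate 5 (0.836, 7.40 with the others at 10.07 to 10.60), Fads2 on Malt1-/- Th17 replicate 1 (0.738, 5.88 with the others at 4.76 to 5.06) and Dhcr7 on Malt1-/- Th1 replicate 3 (0.823, 6.20 with the others at 6.75 to 6.87). The others were Fads1 on WT Th1 48 h replicate 3 (0.737), Insig2 on WT Th1 48 h replicate 4 (0.716), Lss on WT Th17 72 h replicate 4 (0.747), Fads1 on Malt1-/- Th17 72 h replicate 2 (0.747) and Mvk on WT Th1 72 h replicate 4 (0.813). Of these 9, 4 lie on arrays that correlated better with another group. The genotype effect on Fdps in Th17 cells differed between 72 h and 48 h by 0.82, in a test of the difference itself.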

How the results depend on the processing

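Counts of members called were recomputed under each alternative. No called result changed sign under any of them. Without the 8 arrays closer to another group, the genotype counts were 14 and 6 in Th17 cells and 2 and 4 in Th1 cells at 48 h and 72 h, the change of the genotype effect over time in Th17 cells gave 5, and the counts over time were 9 in Malt1-/- Th17, 6 in WT Th17, 5 in Malt1-/- Th1 and 5 in WT Th1 cells. Of all genes, 15.4%, 15.7%, 3.26% and 5.15% were then called in those genotype comparisons, 3.18% in the Th17 change, and 5.2%, 24.3%, 17.6% and 22.1% over time, so the counts over time in WT Th17 and in both Th1 groups, as shares of 30, were no higher than over all genes. That alternative picks arrays by their values and narrows the spread within groups. Other alternatives moved the counts as follows. Without a detection filter, 5 members were called in Th17 cells at 48 h, 0 over time in Malt1-/- Th1 cells and 0 in the Th17 change of the genotype effect. With only the arrays of the compared groups, counts were 0 for genotype in Th1 cells at 72 h, 2 for lineage in WT cells at 72 h, 0 over time in both WT lineages and 0 for the Th17 change of the genotype effect. With all kept probes tested or with the mean of a gene's probes, counts were 1 for genotype in Th17 cells at 72 h, 2 over time in WT Th17, 1 in Malt1-/- Th1 and 0 for the Th17 change, and the probe mean gave 1 in WT Th1 cells. With median scaling, counts were 2 for lineage in Malt1-/- cells at 48 h (0 higher), 1 over time in Malt1-/- Th1 and 2 in WT Th17 cells. Without background correction and with the authors' table, counts were 2 for genotype in Th1 cells at 48 h, 2 for the Th17 change and 2 over time in WT Th17 cells, which the stricter detection filter also gave. Shares of all genes called are not given for these other alternatives, nor for the fits below that left out single arrays. A shift among the members therefore cannot be told apart from a shift over all genes. The cause of these shifts was not tested.

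Leaving out 1 array at a time, genotype counts ran from 4 to 10 and from 0 to 1 in Th17 cells and from 1 to 2 and from 1 to 4 in Th1 cells at 48 h and 72 h. Lineage counts ran from 1 to 5 in Malt1-/- and 5 to 8 in WT cells at 48 h, and from 13 to 16 and 3 to 6 at 72 h. Counts over time ran from 0 to 7 in Malt1-/- Th17, 0 to 5 in WT Th17, 0 to 2 in Malt1-/- Th1 and 0 to 4 in WT Th1 cells. The Th17 change of the genotype effect ran from 0 to 5, and the other differences of the genotype effect stayed at 0. With the replicate block, 8 members were called in Th17 cells at 48 h, and no count moved by over 1.5 times. Median scaling moved the median of all genes by over 0.1 in the lineage comparison of Malt1-/- cells at 48 h (-0.13) and in the differences of the genotype effect at 48 h (-0.14) and in Th17 cells (0.10). It changed the share of higher calls among all genes from 65.4% to 75.7% for genotype in Th17 cells at 72 h, 56.4% to 67.1% in Th1 cells at 48 h, 52.99% to 39.8% for lineage in Malt1-/- cells at 48 h, 40.3% to 28.3% over time in WT Th17 cells, 69.7% to 59.7% in Malt1-/- Th1 cells, and 53.3% to 31.6% for the lineage difference of the genotype effect at 48 h. Slide as a block was not run, since the headers give no slide. Dim probes (Fasn, detected on 14 of 40 arrays, Mvk on 22, Tm7sf2 on 25 and Abcg1 on 26) limit what can be seen of small differences.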
